A study of Mus musculus with 8 samples.

Results

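These are the regions of the mouse genome that carried a called H3K27ac peak in MGE cultures after potassium chloride and in none of the other conditions. Peaks of 8 libraries that overlapped by 1 bp or more were merged on chromosomes 1 to 19 and X, which gave 113604 regions. A region was taken when it held a peak in both MGE KCl libraries, in neither MGE unstimulated library and in none of the 4 CTX libraries. That left 2337 regions, or 2.06% of all merged regions, called MGE-only gained regions here. They were selected on the presence and absence of called peaks, so their number and their peak values in the MGE KCl libraries are a description and no test was run on either. A missing call means that the authors' peak caller reported no peak there, not that acetylation was absent.

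The series profiled H3K27ac by chromatin immunoprecipitation and sequencing in cultured neurons of C57/BL6 mouse embryos, with 4 groups of 2 libraries labelled as biological replicates. CTX and MGE cultures are named in the sample titles; MGE is the usual abbreviation for the medial ganglionic eminence, and the labels do not spell it out. All 8 cultures, controls included, were silenced overnight from day 6 in vitro with 1 µM TTX, which blocks sodium channels, and 100 µM D-AP5, which blocks NMDA receptors. On day 7 the CTX KCl and MGE KCl cultures received 55 mM KCl for 2 h, and the CTX unstimulated and MGE unstimulated cultures received none. The tissue label gives embryonic day 16 for every sample while the CTX titles give day 14, and the cell type label reads as cortical neurons for the MGE cultures too. No sorting step is given, so a region can gain or lose a call because a cell type is more or less common or because its signal differs per cell, and these cannot be told apart in such bulk cultures.

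The lists held 36033 and 49628 peaks for MGE KCl replicates 1 and 2, and between 36234 and 66823 for the other 6 libraries, after 29 peaks on other sequences were left out. Called bases ran from 21.1 Mb in MGE unstimulated replicate 2 to 44.7 Mb in CTX KCl replicate 2, and read depth is unknown. The culture labels were checked against peak calls at marker genes. Called bases at 32 genes of MGE and GABAergic identity covered 4056 to 4574 bp per called Mb in the 4 MGE libraries and 2700 to 3118 in the 4 CTX libraries. At 23 genes of cortical projection neurons the ranges were 1308 to 1557 in MGE and 1804 to 2651 in CTX, and at 15 astrocyte genes 421 to 899 and 1514 to 2268. The MGE and CTX ranges did not overlap for any of these 3 lists. At 12 CGE interneuron genes the CTX libraries were higher, with 1025 to 1374 against 506 to 821 in MGE. Oligodendrocyte lineage, endothelial and mural, and neural progenitor genes were also higher in every CTX library than in every MGE library. At 16 LGE and striatal genes the ranges overlapped, with 1097 to 1482 in MGE and 1320 to 2030 in CTX. At 14 microglia genes the values were 317 to 455 in MGE and 252 to 304 in CTX, so glial and microglial marks moved with the culture, and their part in the results was not tested.

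H3K27ac is an acetyl mark on histone H3 that is laid down at active enhancers and promoters. Membrane depolarization by potassium opens voltage-gated calcium channels, and calcium-dependent kinases then act on factors such as CREB, SRF and MEF2, which switch on immediate early genes, whose products include the AP-1 factors Fos and Jun. The medial ganglionic eminence is the embryonic source of most cortical interneurons that make somatostatin or parvalbumin, and their fate is set by Nkx2-1 and, below it, Lhx6 and Sox6.

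Of 32619 promoter windows listed by RefSeq for build GRCm38.p6, 19 windows of 17 genes met an MGE-only gained region with their listed bases, which run from 250 before the start to 50 after it. The 250 bases before the start are printed for 5 of them because the results below turn on these genes or because the whole window lay inside a region. Each runs 5′ to 3′ on the strand of the gene, and capitals mark a match to CAGCTG (an E-box), TAATTA (a homeodomain core) or TGACGTCA (the full cAMP response element, CRE).
Pthlh, minus strand, chr6:147264014-147264263, wholly inside a region: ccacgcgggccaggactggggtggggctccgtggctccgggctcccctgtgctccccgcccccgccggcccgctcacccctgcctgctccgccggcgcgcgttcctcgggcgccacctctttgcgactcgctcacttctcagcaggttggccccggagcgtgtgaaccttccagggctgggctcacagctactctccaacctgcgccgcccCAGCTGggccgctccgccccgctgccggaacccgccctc
Gm30073, minus strand, chr10:87798373-87798622, wholly inside the region assigned to Igf1: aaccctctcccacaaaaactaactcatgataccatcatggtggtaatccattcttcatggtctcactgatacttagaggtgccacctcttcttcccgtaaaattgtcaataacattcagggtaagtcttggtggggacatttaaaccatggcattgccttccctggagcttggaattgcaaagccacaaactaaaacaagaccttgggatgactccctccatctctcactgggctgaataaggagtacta
Trpc6, plus strand, chr9:8543892-8544141, wholly inside a region: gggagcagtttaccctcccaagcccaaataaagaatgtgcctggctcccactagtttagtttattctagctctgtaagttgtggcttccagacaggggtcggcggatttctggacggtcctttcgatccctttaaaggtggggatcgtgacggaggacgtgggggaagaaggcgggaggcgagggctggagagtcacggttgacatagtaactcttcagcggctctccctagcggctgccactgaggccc
Tac1, plus strand, chr6:7554811-7555060, ending 43 bp before a region: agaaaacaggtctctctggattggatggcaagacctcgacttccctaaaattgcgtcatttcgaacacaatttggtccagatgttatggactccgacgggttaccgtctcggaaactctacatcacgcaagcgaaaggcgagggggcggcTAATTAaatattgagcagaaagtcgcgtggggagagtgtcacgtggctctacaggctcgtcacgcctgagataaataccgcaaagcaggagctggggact
Sst, minus strand, chr16:23890845-23891094, ending 38 bp before a region: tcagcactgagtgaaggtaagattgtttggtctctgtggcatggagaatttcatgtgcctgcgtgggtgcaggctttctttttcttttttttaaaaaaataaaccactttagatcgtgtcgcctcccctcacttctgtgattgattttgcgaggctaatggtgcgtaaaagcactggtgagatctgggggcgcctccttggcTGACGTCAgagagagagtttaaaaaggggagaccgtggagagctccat
The Pthlh window was rich in G and C, at 75.2%, with 26 CpG dinucleotides, against medians of 52.4% and 6 over all listed windows. The Gm30073 window, of an uncharacterised transcript, had 44.4% and 1. TGACGTCA, the site bound by CREB, was in 1 of the 19 windows, that of Sst, and in 1.56% of all listed windows on either strand. The AP-1 motif TGANTCA was in none of the 19 and in 6.78% of all windows, CAGCTG was in 5 and in 13.1%, TAATTA was in 2 and in 4.80%, and the MEF2 motif was in 1 and in 3.23%. These are letter matches in 250 bases, with no overlap between the motifs printed, and no match says only that the letters are not in that window.

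The MGE-only gained regions were close in width to all merged regions, and their peaks ranked low. Their median width was 527 bp, with quartiles at 425 and 670 bp and a range of 248 to 1658 bp. The median was 544 bp over all merged regions and 509 bp for CTX-only gained regions. It was 512 and 551 bp for regions lost in MGE only and in CTX only. Of the MGE-only gained regions, 99.6% and 99.8% held a single peak in replicates 1 and 2. Fold enrichment, a linear ratio that the authors' caller gave to each peak, had a median of 3.34 in MGE KCl replicate 1, between 1.80 and 7.42. In replicate 2 the median was 3.10, between 1.62 and 6.71. The median −log10 q, the caller's adjusted significance, was 2.82 in replicate 1 and 3.28 in replicate 2, below the medians of 3.84 and 3.86 over all peaks of these lists. Only 21.5% and 35.4% of the regions lay above the median of their own list. Across the 2337 regions the folds of the libraries correlated with Pearson r = 0.604 and Spearman rho = 0.576, given without a test since regions of one library share its depth and were kept only where both libraries had a peak. The peaks of the 2 libraries overlapped by at least 50% of the shorter one in 93.3% of regions. The smaller of the paired −log10 q values was 5 or more in 102 regions, or 4.36% (95% Wilson interval 3.61 to 5.27; these intervals cover counting error only).

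**Figure D1:**
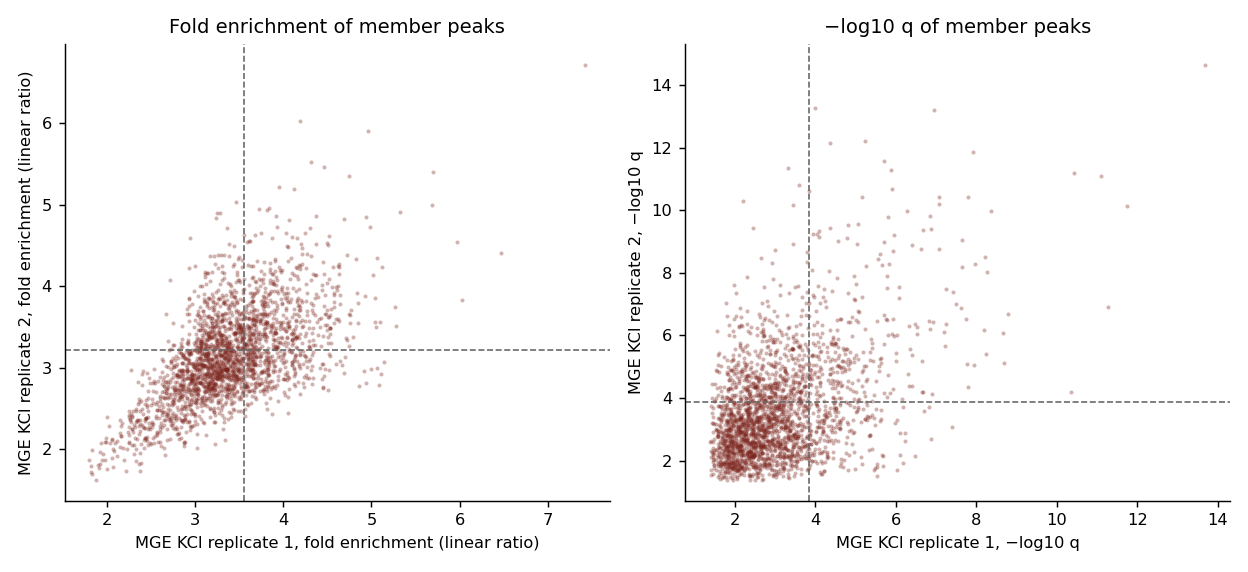
Fold enrichment (left, linear ratio) and −log10 q (right) of the peaks in MGE KCl replicate 1 (x axis) and replicate 2 (y axis), 1 point for each of the 2337 MGE-only gained regions. Dashed lines are the medians of all peaks in each list; most regions lie below both −log10 q lines, and 1 region at fold 7.42 and 6.71 stands apart at the upper right of each panel.

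The boundary of the set ran through many weak calls. Inside it, 579 regions had a smaller −log10 q under 2. Just outside, 766 regions had the same MGE pattern and a peak in 1 CTX list, and 619 of those peaks were in CTX KCl replicate 2, the longest list, with a median −log10 q of 3.27. A further 1404 regions had both MGE KCl peaks, no CTX peak and a peak in 1 MGE unstimulated list, 951 in replicate 1 and 453 in replicate 2, at median −log10 q 2.80 and 2.70. In 3041 regions both MGE KCl and both MGE unstimulated lists had a peak and no CTX list did. A peak in 1 MGE KCl list and in no other list was found at 2238 regions for replicate 1 and 6573 for replicate 2.

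MGE-only gained regions made up 46.9% of the 4980 regions gained in MGE, that is with peaks in both MGE KCl and neither MGE unstimulated library. The others held a peak in 1 (766), 2 (783), 3 (563) or all 4 (531) CTX lists. Width and position differed with the number of CTX lists. A merged region is the union of its peaks, so regions called in more lists are wider, and reach gene ends more often, partly by construction. The median width was 527, 608, 724, 860 and 1089 bp for 0 to 4 CTX lists, and the share within 2 kb of a gene end was 4.62%, 8.22%, 17.9%, 41.2% and 37.9%. For scale, the mirror pattern in CTX held 3140 regions (2.76% of all), KCl-lost regions numbered 1351 in MGE only (1.19%) and 2821 in CTX only (2.48%), 638 regions were gained in both cultures and in no unstimulated list (0.562%), and 12960 had a peak in all 8 lists (11.4%).

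Few MGE-only gained regions were at gene ends. Within 2 kb of either end of a protein-coding gene lay 108 regions, or 4.62% (3.84 to 5.55), against 14.7% of all merged regions, 7.20% of the CTX-only gained regions, 19.1% of the regions gained in both cultures and 62.3% of those called in all 8 lists. The KCl-lost regions of MGE were close to them at 4.29% (3.34 to 5.51). Away from gene ends, 48.7% lay inside a gene and 46.6% outside genes, against 42.1% and 43.3% of all merged regions. No protein-coding gene was within 100 kb of 563 regions (24.1%), against 19.2% of all merged regions. That share was 19.4% for CTX-only gained regions, and 20.4% and 24.7% for regions lost in MGE only and in CTX only. Within 1 kb of a listed start site were 48 of 2237 regions (2.15%), against 13.003% of all merged regions. It was 5.75% of CTX-only and 15.1% of shared gained regions. Regions lost in MGE only and in CTX only were closer, at 2.76% and 3.25%. Chromosome 18 is not used in these start-site shares. The share of a chromosome's merged regions that were MGE-only gained ran from 1.56% on chromosome 17 to 3.26% on X. The miRNA hairpins of Mir8091 and Mir6407, 302 and 1848 bp away, were the only listed ones within 2 kb.

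**Figure D2:**
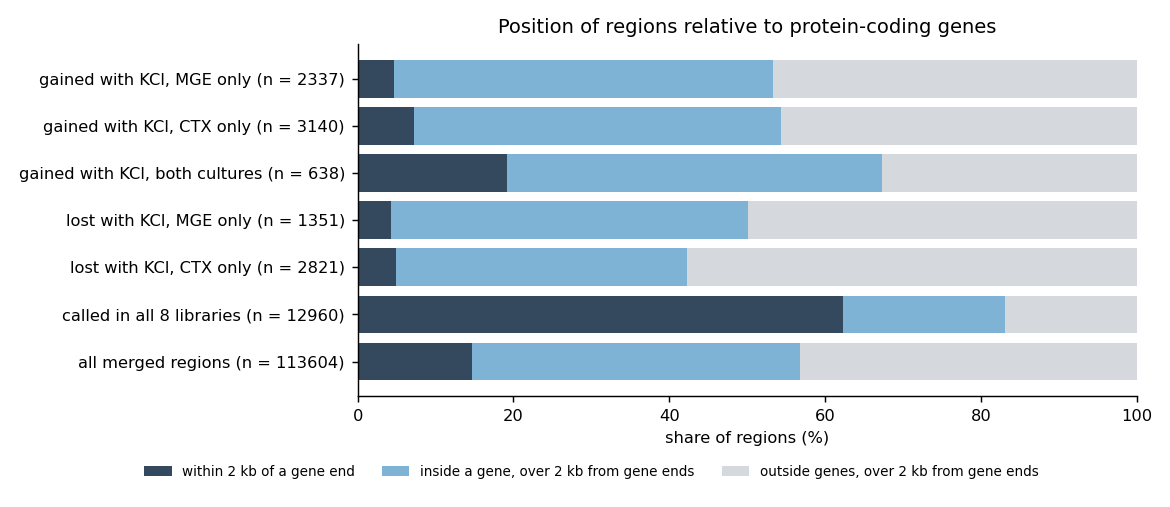
Share of regions (x axis, %) within 2 kb of an end of a protein-coding gene, inside a gene or outside genes, for 6 classes of merged region and for all merged regions (y axis, with the number of regions). The MGE-only gained regions have 4.62% at gene ends, less than the 19.1% of regions gained in both cultures and the 62.3% of regions called in all 8 libraries.

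Many of the regions stood beside peaks of the same or the other culture. A peak of 1 of the 6 other libraries lay within 1 kb of 30.4% of them and within 10 kb of 64.5%, at a median distance of 5.55 kb. By library the median distance to the nearest peak was 15.9 and 19.9 kb for MGE unstimulated replicates 1 and 2, 22.6 and 13.8 kb for CTX KCl, and 27.8 and 16.8 kb for CTX unstimulated. These distances depend on the length of each list. Another MGE-only gained region was within 10 kb of 14.6% and within 50 kb of 27.1%. A region called in all 8 lists was within 10 kb of 10.3%, and one gained in both cultures within 50 kb of 4.07%.

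Calls around the regions took a larger share of the MGE than of the CTX lists. The 10 kb on each side of the regions, with the regions left out, held 3.27% of the called bases of MGE KCl replicate 1 and 3.27% of replicate 2. They held 2.85% and 2.67% in the MGE unstimulated libraries, 1.88% and 2.11% in CTX KCl, and 1.79% and 1.83% in CTX unstimulated. By this share every MGE library was above every CTX library. In called kb, not divided by the total, the cultures overlapped, with 702 and 1049 kb in MGE KCl replicates 1 and 2, 657 and 562 in MGE unstimulated, 535 and 942 in CTX KCl and 421 and 788 in CTX unstimulated. At 1 kb from the centre of a region, on the lower side, 5.35% and 3.64% of regions had a called base in MGE unstimulated replicates 1 and 2 against 1.03% to 3.59% in the CTX libraries, and at 2 kb 1.28% and 1.03% against 0.984% to 2.44%, which overlap. In CTX, KCl against unstimulated gave 1.99% ± 0.160 against 1.81% ± 0.0340 (SD, n = 2 each), a difference of 0.183 percentage points. The exact two-sided permutation p = 0.333 is the smallest that 2 against 2 libraries allow. The rule did not contrast these 2 groups, but it barred regions with a peak in any CTX list, and not equally. Regions barred by 1 CTX list alone numbered 71 and 619 for CTX KCl replicates 1 and 2, and 8 and 68 for CTX unstimulated. MGE unstimulated, at 2.76% ± 0.132, was 1.52 times CTX unstimulated, a comparison chosen after its values were seen. The regions were chosen for MGE KCl peaks and for no CTX peak, so the rule favours this order of the cultures and no p-value is given for it. Around CTX-only gained regions, where the mirror rule favours the opposite order, the shares were 2.61% to 2.95% in the MGE libraries and 3.10% to 4.28% in the CTX libraries.

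**Figure D3:**
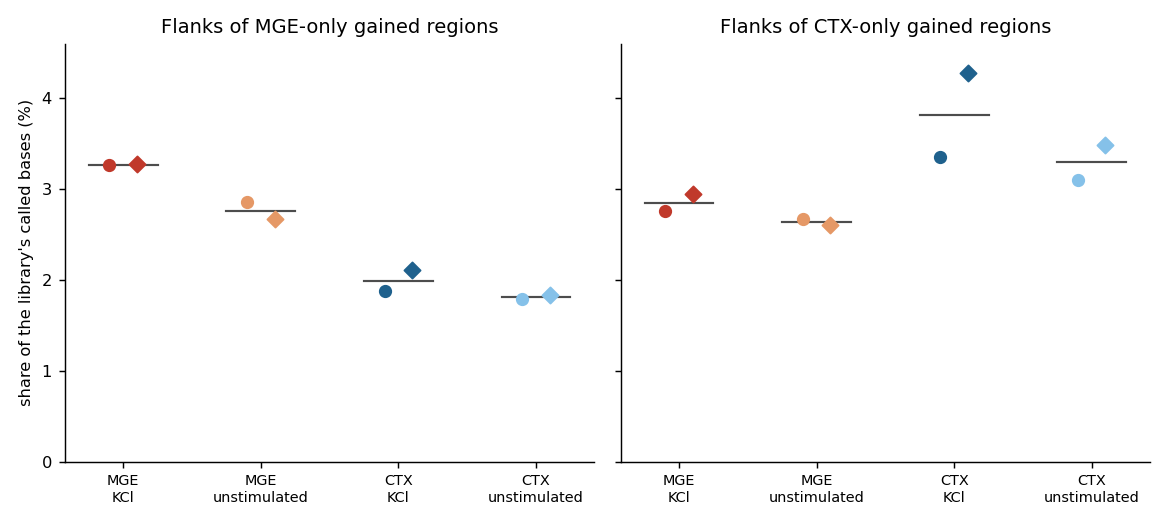
Share of each library's called bases (y axis, %) in the 10 kb on each side of MGE-only gained regions (left) and CTX-only gained regions (right), by group (x axis), with circles for replicate 1, diamonds for replicate 2 and bars for the mean of the 2 libraries. The 4 MGE libraries (2.67% to 3.27%) lie above the 4 CTX libraries (1.79% to 2.11%) on the left and below them on the right. The choice of the regions favours this order in both panels.

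Regions were assigned to the nearest protein-coding gene within 100 kb. At least 1 MGE-only gained region was assigned to 1242 of 21631 genes (5.74%), and 358 genes had 2 or more. Long genes had more of them in relation to their other regions as well: 1.35% of merged regions at genes up to 50 kb, 1.98% at genes of 50 to 200 kb and 2.51% at longer genes were MGE-only gained, and 40.5% of the longest class had at least 1. Over all assigned regions the share was 1.93%, and that of CTX-only gained regions 2.76%. Assignment by distance does not show which gene a region acts on. The 18 gene lists below are read against these shares without a test. Of the 21631 genes, 15216 had any merged region, and a gene with more merged regions can more easily hold an MGE-only gained one. A list's share of genes with such a region therefore depends on how many merged regions its genes have.

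The 32 genes of MGE and GABAergic identity held 23 MGE-only gained regions among their 561 merged regions, 4.10% (2.75 to 6.08) against 1.93% over all genes. All 32 genes had a merged region, against 15216 of all 21631. Of the 32 genes, 12 (37.5%, against 5.74% of all genes) had at least 1 MGE-only gained region. Their CTX-only gained share was 1.60% against 2.76%, and 16 of their regions were lost with KCl in MGE only, 2.85% against 1.17% over all genes. Gained and lost calls in MGE were thus both more frequent at these genes than over all genes. Their median span was 19.7 kb against 17.3 kb. The rule leaves out regions with a CTX peak, and called bases at these genes were 4056 to 4574 bp per called Mb in MGE and 2700 to 3118 in CTX. A higher MGE-only share can therefore follow from the selection whatever the response to KCl, which was not tested. Of the 23 regions, 6 were at Erbb4 alone. The higher gained share depended on how the lists were made equal. With the same number of peaks per list, 19 of 436 regions (4.36%, at 12 genes) were gained in MGE only, against 2.60% over all genes. With the same number of called bases, 8 of 388 (2.06%, at 4 genes) were, against 2.14%, and with peaks of −log10 q of 5 or more it was 7 of 201 (3.48%) against 1.57%. These 3 settings call partly other regions: only 1585, 864 and 102 of the 2337 regions were called under them. For the 23 cortical projection neuron genes the shares were 0.865% MGE-only and 3.17% CTX-only gained.

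Nkx2-1, the factor that specifies MGE progenitors, had 3 MGE-only gained regions among 11 merged regions, and no CTX library had a call at any of the 11. MGE KCl replicates 1 and 2 had calls at 3 and 7 of them and MGE unstimulated replicates at 6 and 5, and a further 3 regions were called in both unstimulated and in no KCl list. The Nkx2-1 locus therefore held gained and lost calls in equal number. The farthest gained region, chr12:56571882-56572832, was 34.97 kb outside the gene, with fold 3.997 and 3.49 and −log10 q 3.27 in each library. Inside the gene, chr12:56534900-56535886 had fold 2.58 and 2.09 with −log10 q 3.15 and 3.85, and a peak of another library lay 0.412 kb away.

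Erbb4, the neuregulin receptor of migrating and mature interneurons, held 6 regions, more than any other gene of the list. The strongest, chr1:69143888-69144534, lay 35.3 kb outside the gene with fold 4.10 and 3.19 and −log10 q 8.23 and 5.40. A peak of another library was 0.539 kb from it. The gene had calls at 37 and 53 merged regions in the MGE KCl libraries, 39 and 31 in the MGE unstimulated ones, 12 and 18 in CTX KCl and 11 and 13 in CTX unstimulated. MGE counts were above CTX counts in every library, while the KCl and unstimulated counts of MGE overlapped. In turn, 4 of its regions were lost with KCl in MGE only.

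Neuropeptide genes of MGE interneurons were among those with a region at the gene start. The Sst region, chr16:23889937-23890806, lay inside the annotated span of the somatostatin gene, 38 bp downstream of a listed start and of the CRE-bearing window printed above, which is also within that span. Its fold was 2.68 and 2.24 and its −log10 q 2.68 and 3.19 in MGE KCl replicates 1 and 2. These values were below the medians of their lists, and the nearest peak of another library was 6.06 kb away. At Tac1, which encodes substance P, chr6:7555104-7555535 began 43 bp inside the gene with fold 3.66 and 3.64 and −log10 q 2.48 and 3.48. Across the Sst locus, 5 and 4 of 7 merged regions were called in MGE KCl, 2 and 3 in MGE unstimulated, 1 and 2 in CTX KCl, and 0 and 2 in CTX unstimulated. At Tac1 the counts of 11 regions were 7 and 6, 5 and 3, 2 and 4, and 3 and 2 in that order. Here, as at every locus, the MGE-only gained regions add to the MGE KCl counts alone by their selection. Without them MGE KCl had 4 and 3 at Sst and 5 and 4 at Tac1, which overlaps MGE unstimulated at both genes. Npy, a neuropeptide of MGE-derived cells, had 1 region 52.8 kb outside the gene, with fold 2.87 and 2.36 and −log10 q 2.98 and 3.32. A peak of another library lay 0.66 kb from it.

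Slc32a1, the vesicular GABA transporter, had 2 regions, and chr2:158611058-158611771 lay inside the gene near a listed start, with fold 1.92 and 1.81 and −log10 q 3.88 and 4.93. A peak of another library was only 0.531 kb away, and 2 other regions of the locus were lost with KCl in MGE only. Reln, the extracellular signal reelin, had 3 regions, of which chr5:22080583-22080940 in the gene had the largest fold of replicate 1, with 3.72 and 2.80 and −log10 q of 3.405 and 1.72. Single regions were assigned to Ackr3, a chemokine receptor of migrating interneurons, to the transcription factor Zeb2, and to Elfn1, a postsynaptic protein of somatostatin cells. Their −log10 q values ran from 2.05 to 3.69. Gad1, Gad2, Lhx6, Sox6 and Pvalb, which define these cells, had no MGE-only gained region.

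A list of 16 genes put forward as activity-responsive in GABAergic neurons held 12 MGE-only gained regions among 222. That was 5.41% (3.12 to 9.21), against 1.93% over all genes. They were at 6 genes (37.5%, against 5.74% of all genes): Bach2, Frmpd3, Igf1, Kcnip1, Prok2 and Pthlh. The share was 6.57% (9 of 137) against 2.14% with equal called bases. With −log10 q of 5 or more it was 3 of 80 regions (3.75% against 1.57%), at 2 genes. CTX-only gained regions numbered 7, or 3.15%, against 2.76% over all genes.

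Pthlh, which encodes parathyroid hormone-like peptide, had 4 of them among 15 merged regions. The widest of all MGE-only gained regions, chr6:147263007-147264664, spanned 1658 bp over its start and covered the whole printed window, with fold 3.42 and 2.65 and −log10 q 3.46 and 2.54. The nearest peak of another library was 16.2 kb away. The width of this region was that of the replicate 2 peak, with 459 called bases in replicate 1 and 1658 in replicate 2. The other 3 lay 9.42, 10.3 and 43.2 kb outside the gene; the nearest, chr6:147273436-147273887, had fold 2.75 and 3.55 and −log10 q 1.80 and 6.62, so the libraries differed there. The locus had calls at 9 and 14 merged regions in the MGE KCl libraries, 6 and 3 in MGE unstimulated, 2 and 4 in CTX KCl, and 2 and 2 in CTX unstimulated. Without the 4 regions, which count in MGE KCl alone by their selection, MGE KCl had 5 and 10, which overlaps the 6 and 3 of MGE unstimulated.

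Igf1, insulin-like growth factor 1, had 2 regions among 17. The stronger, chr10:87798163-87798980, was 59.3 kb outside the gene and enclosed the Gm30073 start and its printed window, with fold 3.19 and 3.45 and −log10 q 3.76 and 6.65. The second, chr10:87782288-87782922, was 75.3 kb away with −log10 q 2.06 and 2.82. The nearest peak of another library was 13.7 kb from the first and 17.1 kb from the second. Called regions at the locus numbered 9 and 14 in the MGE KCl libraries and 8 and 9 in MGE unstimulated, against 3 and 6 in CTX KCl and 2 and 2 in CTX unstimulated. Kcnip1, a modulator of A-type potassium channels, had regions 18.8 and 18.1 kb from a listed start, the stronger at chr11:33824275-33824837 with fold 3.65 and 3.25 and −log10 q 5.58 and 4.85. At that locus MGE KCl did not stand out, with calls at 8 and 11 regions against 14 and 10 in MGE unstimulated and 18 in CTX unstimulated replicate 2. Prok2, a secreted signalling peptide, had 2 regions, 0.473 and 0.359 kb from a peak of another library.

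Immediate early genes were near the background. Of 43 such genes in the annotation, 3 (6.98%, against 5.74% of all genes) had an MGE-only gained region, 1 each, which was 1.26% (0.428 to 3.62) of their 239 merged regions, against 1.93% over all genes. Regions gained in both cultures numbered 12 of the 239, at 11 of these genes, against 565 of 91813 over all genes. CTX-only gained regions numbered 8 (3.35%, against 2.76% over all genes), at 7 of these genes. Dusp6, a phosphatase of the ERK kinases, had its region 11.5 kb outside the gene with fold 3.56 and 2.77. Klf6, a zinc-finger factor, had one 1.28 kb beyond the gene end with fold 3.00 and 3.28, and a peak of another library lay 0.417 kb away. The Homer1 region was inside the gene with −log10 q 1.94 and 3.22. With equal numbers of peaks in each list the count was 8 of 183 regions (4.37% against 2.60% over all genes), and with equal called bases 4 of 158 (2.53% against 2.14%).

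Genes of the later response had 17 CTX-only gained regions (4.71% against 2.76% over all genes). MGE-only gained regions numbered 9 of their 361 (2.49% against 1.93%), at 5 of the 41 genes (12.2% against 5.74%). Rasgrp1, which activates Ras, had 3, at 38.8, 51.8 and 61.5 kb outside the gene. Ntrk2, the BDNF receptor, had 2. The strongest by both libraries was at Spry2, an inhibitor of receptor kinase signalling: chr14:105922331-105922788, 25.5 kb outside the gene, with fold 4.15 and 3.66 and −log10 q 5.30 and 4.61. Scg2, a granin of secretory vesicles, had 1 at 1.19 kb from the gene end with −log10 q 4.81 and 4.55, and a peak of another library lay 0.631 kb from it. None of the late genes had an MGE-only gained region with −log10 q of 5 or more in both libraries.

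Neurotransmitter receptor genes had 34 MGE-only gained regions among 884 (3.85%, 2.77 to 5.33, against 1.93% over all genes). Of the 39 genes, 13 (33.3%) had at least 1, against 5.74% of all genes and 40.5% of those over 200 kb. Their share of CTX-only gained regions, 2.38%, was below the 2.76% of all genes. The share was also above that of all genes with equal called bases (6.51% against 2.14%) and with −log10 q of 5 or more (3.46% against 1.57%), settings that call partly other regions, as above. The median span of these genes was 224 kb, and 2.51% of regions at genes over 200 kb were members. Grin2a, an NMDA receptor subunit, had 5 regions of 41, and chr16:9554558-9555493, 12.4 kb outside the gene, had fold 3.12 and 2.92 and −log10 q 5.10 and 6.75. Another library had a peak 0.177 kb from that region. Gria1 and Gria2, AMPA receptor subunits, had 3 and 2. The strongest at Gria1, chr11:56930953-56931959, was 79.6 kb outside the gene with −log10 q 5.56 and 8.44, and other libraries had a peak 0.842 kb away. GABA-A receptor genes with a region were Gabra2, Gabrg1 and Gabrg3.

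Ion channel genes had 27 of 1003 regions (2.69% against 1.93% over all genes). Of the 44 genes, 13 (29.5%) had at least 1, against 5.74% of all genes and 40.5% of those over 200 kb. Cacna1a, the pore of the P/Q-type calcium channel, had 3 of 18 regions, led by chr8:84335712-84336337 with −log10 q 7.61 and 6.87. Without them that locus had calls at 9 and 9 regions in MGE KCl, 7 and 3 in MGE unstimulated, 7 and 10 in CTX KCl and 2 and 7 in CTX unstimulated. Kcnj6, a G-protein-gated potassium channel, had 2. Synaptic scaffold and adhesion genes had 38 of 1260 regions (3.02%, 2.21 to 4.11) and 4.44% CTX-only gained, against 2.76% over all genes. Their median span was 313 kb, and the 2.51% of regions at genes over 200 kb lies inside the interval of 2.21 to 4.11. In this list Nlgn1, encoding neuroligin 1, held a region of high fold in both libraries, chr3:25763333-25763920 at 6.47 and 4.41 with −log10 q 11.3 and 6.91. Genes of calcium and cAMP signalling had 20 of 853 (2.34%), near the share of all genes.

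**Figure D4:**
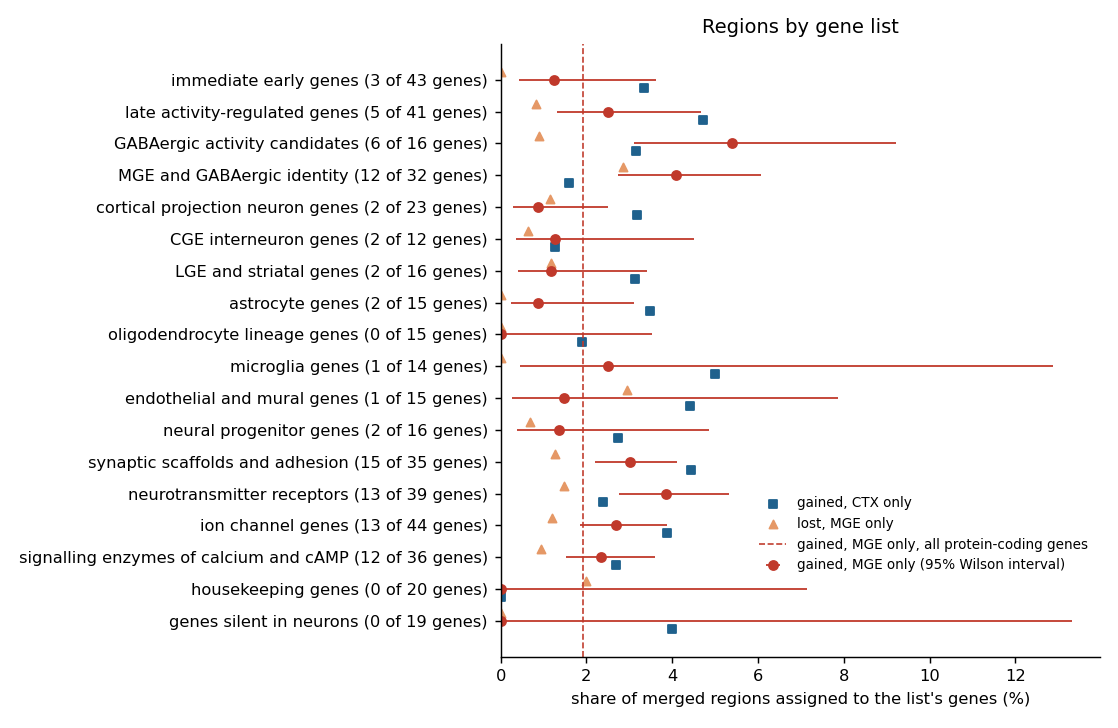
Share of the merged regions assigned to each list's genes (x axis, %) that were MGE-only gained (circles, 95% Wilson interval for counting error), CTX-only gained (squares) or lost with KCl in MGE only (triangles), by gene list (y axis, with genes holding an MGE-only gained region of those in the annotation). The dashed line is the 1.93% over all protein-coding genes; the intervals of the GABAergic candidates (3.12% to 9.21%), the identity genes (2.75% to 6.08%), the receptors (2.77% to 5.33%) and the synaptic scaffolds (2.21% to 4.11%) lie above it, while the 2.51% at genes over 200 kb lies inside that of the scaffolds, whose median span is 313 kb.

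Lists of other cell types are given for comparison with the 1.93% of all assigned regions. Oligodendrocyte lineage genes had 0 of 105 regions (upper Wilson bound 3.53%), housekeeping genes 0 of 50 and genes silent in neurons 0 of 25. Astrocyte genes had 2 of 230 (0.870%), CGE interneuron genes 2 of 158, LGE and striatal genes 3 of 255, progenitor genes 2 of 146, and endothelial and mural genes 1 of 68. The Wilson intervals of all these lists contained 1.93%, which is not a test, since regions of 1 gene are not independent. Of the astrocyte genes, 13.3% had a region against 5.74% of all genes. The 1 region of the microglia list, at Cd68, a lysosomal protein of phagocytes, was the only merged region of that gene and had fold 2.82 and 2.19 with −log10 q 3.18 and 1.96.

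The 12 regions with the highest −log10 q in both libraries were mostly distant from gene starts, and 9 were assigned to a gene. Apart from 1 on chromosome 18, for which starts are not used here, only the region in Rapgef4, 1.52 kb away, was within 2 kb of a listed start. First was chr3:46106938-46107421, with fold 7.42 and 6.71 and −log10 q 13.7 and 14.7, each the highest among the 2337 regions in its library. It had no protein-coding gene within 100 kb, and the nearest peak of another library was 24.4 kb away. Next came chr10:18627298-18628268 in Arfgef3, a regulator of secretory granules, with −log10 q 11.1 in both libraries and folds of 3.39 and 3.10. A peak of another library lay 0.553 kb from it. The region at chr7:59192309-59192942, 35.8 kb outside the ubiquitin ligase gene Ube3a, had fold 5.69 and 5.40 and −log10 q 10.4 and 11.2. The region at chr5:141496433-141497042 in Sdk1, a synaptic adhesion gene, had fold 5.97 and 4.54 and no peak of another library within 72.8 kb. The others with a gene were in Sgcz, Clasp2, Cdc14b, Ctnna2, Rapgef4 and Exd2, with folds from 2.67 to 4.98. Another library had a peak 0.364 kb from the Clasp2 region, 0.534 kb from that in Rapgef4 and 0.702 kb from that in Ctnna2. For Exd2, Cdc14b and Sgcz the distances were 9.10, 10.0 and 29.9 kb. The region on chromosome 18 had such a peak 0.94 kb away. Besides Pthlh, the widest were chr19:35455713-35457321 at 1609 bp, with no gene within 100 kb, and chr6:126814982-126816508 at 1527 bp, 5.36 kb outside Ndufa9, with fold 4.52 and 4.08. Called bases in MGE KCl replicates 1 and 2 were 558 and 1609 for the chromosome 19 region and 1171 and 1395 for that at Ndufa9.

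Between them, 9 genes held 6 or more MGE-only gained regions, and most are long. Ppargc1a, the coactivator PGC-1α of mitochondrial genes, held 9 of 43 regions. The strongest was chr5:51981328-51982247 with fold 3.64 and 3.04 and −log10 q 7.25 and 6.37, and a peak of another library lay 0.253 kb from it. Another of the 9, chr5:51573331-51574025, lay 5.61 kb from a listed start. Ppargc1a had calls at 22 and 25 regions in the MGE KCl libraries, 12 and 6 in MGE unstimulated, 8 and 14 in CTX KCl, and 3 and 10 in CTX unstimulated. Without the 9 regions MGE KCl had 13 and 16, which overlaps CTX KCl replicate 2. Only 1 of its regions was CTX-only gained, and none was lost in MGE.

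Hsd17b12, a fatty acid elongation enzyme, held 6 regions of 24 although its span was only 125 kb, and its counts were 20 and 21 in the MGE KCl libraries, 9 and 10 in MGE unstimulated, 7 and 11 in CTX KCl, and 4 and 5 in CTX unstimulated. Without the 6 regions MGE KCl had 14 and 15, still above the other groups. Spock3, a secreted proteoglycan, held 7 of 55, with counts of 25 and 47 in the MGE KCl libraries and 22 and 15 in MGE unstimulated against 2 or 3 in each CTX library. Calls at Spock3 were thus far more frequent in MGE with and without KCl. Rims1, a scaffold of the presynaptic active zone, held 6 of 33, led by chr1:22711312-22712148 with fold 3.86 and 3.52 and −log10 q 6.85 and 6.20. Its counts were 14 and 18, 7 and 6, 6 and 10, and 4 and 7 in the same order of groups, with 8 and 12 in MGE KCl when the 6 regions are left out.

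The largest adhesion and guidance genes held gained regions of both cultures. Robo2, an axon guidance receptor, held 7 of 90 regions and Tenm2, a teneurin, 7 of 115, with 2 and 4 CTX-only gained regions. Magi2, a synaptic scaffold, held 6 of 108 and Nrxn3, a neurexin, 6 of 147, with 8 and 5 CTX-only gained regions. Nrxn3 had calls at 42 and 71 regions in the MGE KCl libraries, 51 and 40 in MGE unstimulated, 35 and 68 in CTX KCl and 34 and 63 in CTX unstimulated, and these ranges overlapped.

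**Figure D5:**
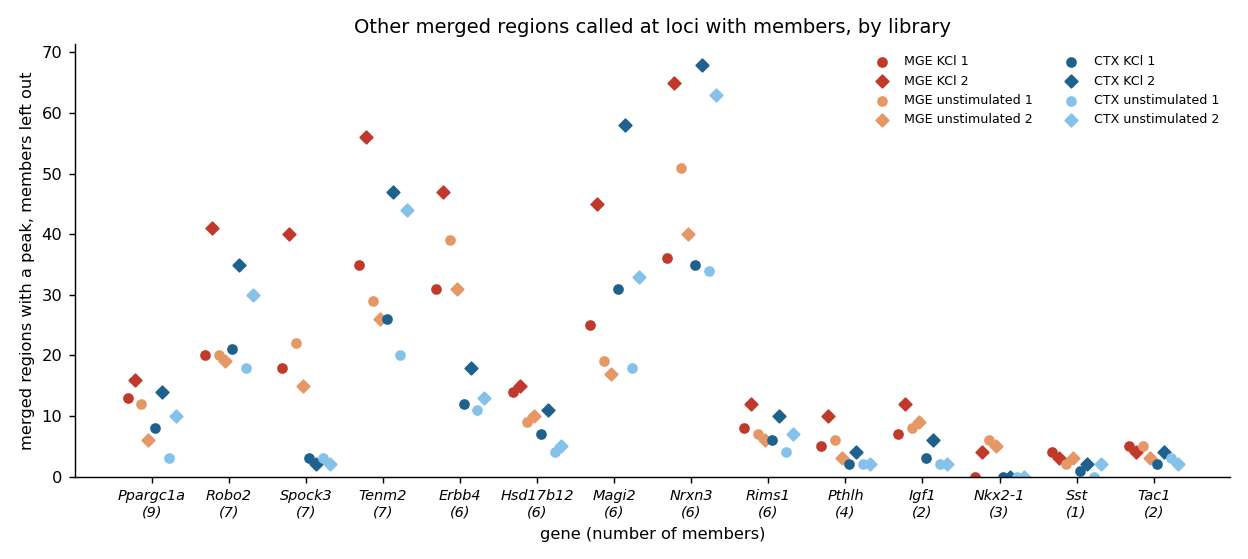
Number of merged regions with a peak (y axis), the MGE-only gained regions left out, in each of the 8 libraries at 14 genes (x axis, with the number of MGE-only gained regions in brackets), with circles for replicate 1, diamonds for replicate 2 and one colour for each group. MGE KCl stays above the other groups at Hsd17b12 (14 and 15) and overlaps another group at Ppargc1a (13 and 16) and Pthlh (5 and 10). At Nkx2-1 it has 0 and 4, below the 6 and 5 of MGE unstimulated, and all 4 CTX libraries have 0.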

How the data were processed

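H3K27ac peak lists of 8 libraries, deposited in broadPeak form and called separately per library, were used as given. Per the labels' protocols, chromatin came from fixed cells and was immunoprecipitated with 1 antibody. The submitters' processing notes name cutadapt 1.18, Bowtie2 2.3.3, MACS3 3.0.0a7, deepTools 3.4.3 and the build mm10, without roles, and the caller's thresholds and controls were not given in the sources read. Each deposited peak carries a fold enrichment (a linear ratio), a −log10 p, a −log10 q and a display score made by the authors. Only the positions, fold and −log10 q were used, as descriptions of peaks within their own list. The lowest −log10 q in any list was 1.30. Read depth is unknown, so unequal list lengths were treated as an alternative setting, and a p-value speaks only of the scatter of these libraries, which could be technical.

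Peaks on chromosomes 1 to 19 and X were merged in Python 3.11.15 with numpy 2.4.6, pandas 2.3.3 and scipy 1.17.1. Gene spans, promoter windows and miRNA hairpins came from RefSeq for GRCm38.p6, whose coordinates were used with the mm10 positions. Of 442 listed genes, 440 were in the annotation. The steps were checked on simulated peaks. The regions, the 18 gene lists and the comparisons were chosen with earlier results of these data known. Named regions were the 12 with the largest smaller −log10 q, all at genes of the 4 activity and identity lists, those at the genes with most regions, the 3 widest, and up to 3 for each other list, which gave 139 regions at 67 genes. The gene counts by library and the members named beyond these were chosen for description. The alternatives were a −log10 q minimum of 5, equal numbers of peaks or of called bases per list, merging up to 1 kb, a 50% overlap of the KCl peaks, other distances and leaving out each library. Sequences of the regions themselves were not used here. A few of the named regions are not reported here.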

Additional observations from a re-analysis of the deposited data

How the results depend on the processing

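The number of MGE-only gained regions depended on the threshold and on list length. It was 668 with −log10 q of 5 or more in all lists, 102 when only the MGE KCl peaks had to reach 5, and 1548 with the same called bases per list; these settings drop peaks by construction. Leaving out 1 library at a time gave 2345 to 9017 regions, with 9017 without MGE KCl replicate 1 and 4734 without MGE KCl replicate 2, where a single KCl peak is enough. Genes with a region numbered 456 and 80 at the stricter thresholds and 1243 to 3353 with 1 library left out, 3353 and 2140 without MGE KCl replicates 1 and 2. The identity list had 6, 1 and 4 genes under the first 3 settings and 20 without MGE KCl replicate 1, and the GABAergic candidates had 2 and 0 genes at the stricter thresholds. The share within 2 kb of a gene end was 5.78% with equal peaks and 6.33% with equal called bases, where the cause was not tested, and 4.06% to 5.37% with 1 library left out. Within 1 kb it was 2.91% and within 5 kb 8.34%.

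The difference in flanks between CTX KCl and CTX unstimulated kept its sign under 9 alternatives. The exact two-sided permutation p was 0.667 with flanks of 5 kb, with flanks of 50 kb and in called kb not divided by the total. The difference was 0.0700 to 0.296 percentage points with 1 CTX library left out, 0.106 and 0.368 with flanks of 5 and 50 kb, and 0.000555 with −log10 q of 5 or more. With the replicate number as a block, the paired difference was 0.183 (0.0941 and 0.272 within numbers 1 and 2). Across the 2337 flanks, replicate 1 minus 2 in CTX KCl correlated with the same difference in CTX unstimulated, with Pearson r = 0.322. The labels do not say that a number marks a shared culture.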
